A study of Mus musculus with 2 samples.

Results

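Slc12a5 and Slc12a2, the genes of the chloride cotransporters KCC2 and NKCC1, were described in the accessible chromatin of the mouse hippocampus at 10 days of age. They were the 2 members of a set chosen by name, out of 21938 protein-coding genes of the annotation (GENCODE M21). For each gene the accessible regions within 1000 bp of any annotated start were collected, together with all regions and footprints in the gene body and the 10 kb on each side. DNase-seq was used, an assay in which DNase I cuts DNA that nucleosomes leave exposed. There was 1 group of 2 libraries, labelled as biological replicates 1 and 2, and no second condition. Each came from its own sample, which the labels call layer of hippocampus tissue and describe as holding 3 males. The mice were B6CASTF1/J, the hybrid offspring of C57BL/6J and CAST/EiJ parents, and the labels name no treatment. Both samples bear the same donor label, so the spread between the libraries measures these 2 samples only.

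KCC2 carries chloride and potassium out of neurons, and NKCC1 carries chloride, sodium and potassium in. Together they set the chloride level inside the neuron, and with it whether GABA and glycine, which open chloride channels, depolarise or hyperpolarise the cell. In the rodent hippocampus KCC2 is known to increase during the weeks after birth, while NKCC1 is widely expressed in neurons, glia and the choroid plexus. Slc12a5 has alternative exons at its start, an upstream exon 1a (KCC2a) and a downstream exon 1b (KCC2b, the main form of the mature brain).

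Slc12a5 (ENSMUSG00000017740.17) lies on the plus strand of chromosome 2 from 164960802 to 164999731 on mm10 (GRCm38), a body of 38.93 kb. Its 10 annotated starts fall into a cluster at exon 1a (164960802 to 164960846), a cluster at exon 1b (164967983 to 164968281) and 2 starts of retained-intron transcripts at 164982437 and 164996591. Slc12a2 (ENSMUSG00000024597.11) lies on the plus strand of chromosome 18 from 57878678 to 57946821, a body of 68.144 kb. It has a single coding start at 57878678 and a retained-intron start at 57927205.

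For each library the authors deposited a shorter and a longer list of accessible regions, each region with a height on the scale of its library. The shorter lists held 54546 regions in replicate 1 and 74278 in replicate 2, and the longer lists 94187 and 131213. No source used here gives the read depth, so no counting error could be attached to a single height. Marker promoters were looked up in the shorter lists, where 59.3% of all protein-coding genes were open in both libraries. The marker lists are too short to read their shares against that background, so they do not test the tissue label. All 5 neuronal markers (Rbfox3, Map2, Snap25, Syt1, Tubb3) were open in both libraries. Of the excitatory neuron markers 4 of 5 were open in both, whereas Slc17a7 was open in replicate 2 alone. Of 4 markers of the choroid plexus, a tissue rich in NKCC1, Ttr and Kl were open in replicate 2 alone, at heights of 0.497 and 0.552, and Otx2 and Folr1 in neither. Glial promoters were open too: of 4 markers of the oligodendrocyte lineage Olig2, Mbp and Pdgfra were open in both libraries, and of 4 astrocyte markers Gfap was open in both, with 3.00 in replicate 1 and 4.24 in replicate 2, and the other 3 in 1 library each. Of 3 interneuron markers Gad1 was open in both and the other 2 in replicate 2 alone. None of the 3 microglial and 3 endothelial or mural markers was open in both libraries. In bulk tissue, fewer cells with an open site and less access per cell cannot be told apart.

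Slc12a5 had accessible DNA at its starts in both libraries, but it passed into the shorter list in replicate 2 only. In that list it had no region at any of its 10 starts in replicate 1 and 4 regions at its own starts in replicate 2, with a greatest height of 1.73. In the longer list the greatest height was 1.20 in replicate 1 and 1.73 in replicate 2, both at exon 1b. A gene counts as open with at least 1 region in the 1000 bp around any start. In the shorter lists 59.6% of protein-coding genes were open in replicate 1, 64% in replicate 2 and 59.3% in both, and in the longer lists 64.9%, 68.4% and 64.4%. Slc12a5 thus belonged to the 4.75% of genes (1042 of 21938) open in replicate 2 alone in the shorter lists. It also belonged to the 74.6% of those genes (777) that were open in both libraries in the longer lists.

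**Figure D1:**
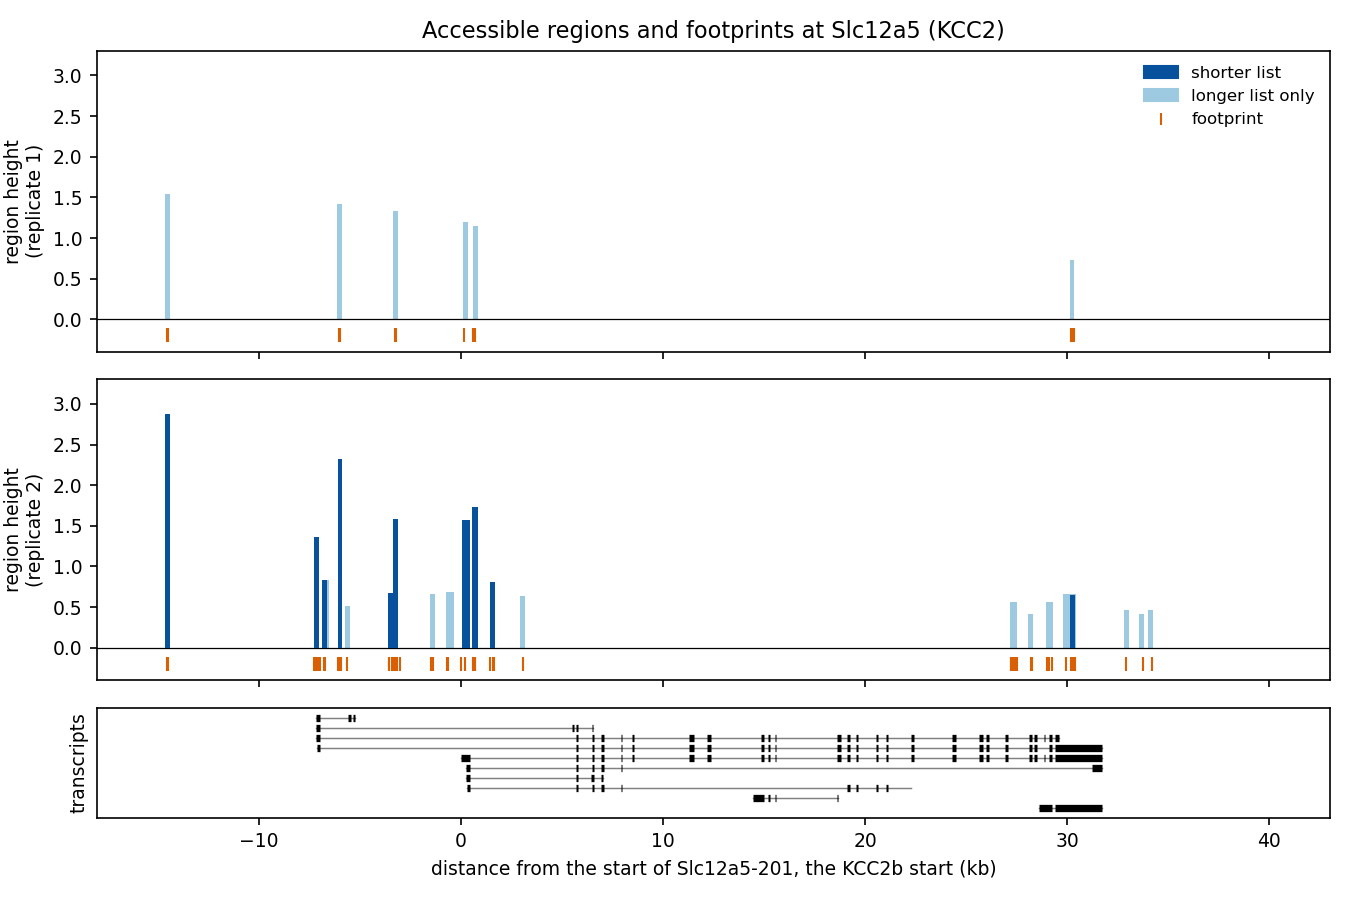
Regions and footprints over the Slc12a5 body and 10 kb on each side, by distance in kb from the start of Slc12a5-201 at exon 1b; bar height is the authors' region height, dark bars are in the shorter list, light bars in the longer list only, ticks are footprints, narrow regions are widened to be visible, and the annotated transcripts are below. Replicate 1 has 6 light bars between 0.735 and 1.55 and no dark one, while replicate 2 has 20 regions in the longer list and 10 in the shorter.

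The exon 1b cluster carried accessible DNA in both libraries. One region covered the 5' UTR of exon 1b, from 164968105 to 164968332 with a height of 1.20 in replicate 1 and from 164968041 to 164968420 with a height of 1.57 in replicate 2. A second lay in the intron just behind exon 1b, from 164968586 to 164968786 with 1.14 in replicate 1 and from 164968541 to 164968820 with 1.73 in replicate 2. Both regions were higher in replicate 2.

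At the exon 1a cluster a region over the starts, from 164960701 to 164960940, had a height of 1.36 in replicate 2. Replicate 1 listed none there, in either list. A lower region behind exon 1a, with a height of 0.830, was likewise listed in replicate 2 alone. The annotated KCC2a starts were therefore open in 1 library and the KCC2b starts, in the longer list, in both.

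Between the clusters lay 2 regions found in both libraries, in the intron between exons 1a and 1b. The one nearer exon 1a had a height of 1.41 in replicate 1 and 2.32 in replicate 2, the greatest within the Slc12a5 body in either library. Its near edge was 1035 bp behind the closest start in replicate 1 and 1055 bp in replicate 2, just outside the 1000 bp that define a promoter region. The other, at 164964601 to 164964860 in replicate 2, had 1.34 in replicate 1 and 1.59 in replicate 2 and lay 3123 bp before the exon 1b cluster in replicate 2. The remaining regions of both libraries were 1 in the 3' UTR at the far end of the gene, with 0.735 in replicate 1 and 0.655 in replicate 2, and 1 upstream of Slc12a5. The upstream region lies in a coding exon and intron of the neighbour Mmp9, a matrix metalloprotease gene, 7262 bp before the exon 1a cluster in replicate 2, and was the highest of the locus with 1.55 in replicate 1 and 2.87 in replicate 2. All 6 regions of replicate 1 overlapped one of replicate 2, and 5 of the 6 were higher in replicate 2.

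Sequences are shown for the 4 regions that both libraries hold and that contain no annotated UTR, because footprints in the same place recurred in each of them. Footprints are short stretches inside accessible DNA that were cut less than their surroundings, as listed by the authors at a p-value limit of 0.01. The letters are the plus strand of the C57BL/6J reference GRCm38, read at the bounds of the region in replicate 2, so the CAST/EiJ allele is not shown. Capitals mark bases inside a footprint of both libraries. In order along the chromosome they are the region in Mmp9 at chr2:164953361-164953540, the one behind exon 1a at chr2:164961901-164962100, the one in the middle of the intron at chr2:164964601-164964860 and the one behind exon 1b at chr2:164968541-164968820.
Mmp9 body: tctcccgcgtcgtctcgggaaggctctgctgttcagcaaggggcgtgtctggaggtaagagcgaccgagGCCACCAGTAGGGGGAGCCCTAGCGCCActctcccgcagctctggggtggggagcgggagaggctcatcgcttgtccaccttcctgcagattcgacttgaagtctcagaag
behind exon 1a: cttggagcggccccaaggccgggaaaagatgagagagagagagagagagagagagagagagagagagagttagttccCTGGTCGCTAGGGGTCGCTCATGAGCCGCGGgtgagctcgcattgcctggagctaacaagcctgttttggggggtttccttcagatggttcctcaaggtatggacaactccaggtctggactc
middle of the intron: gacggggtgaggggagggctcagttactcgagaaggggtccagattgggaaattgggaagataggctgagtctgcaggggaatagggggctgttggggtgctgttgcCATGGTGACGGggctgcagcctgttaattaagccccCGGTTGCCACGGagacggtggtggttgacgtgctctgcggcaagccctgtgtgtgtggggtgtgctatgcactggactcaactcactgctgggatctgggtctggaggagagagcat
behind exon 1b: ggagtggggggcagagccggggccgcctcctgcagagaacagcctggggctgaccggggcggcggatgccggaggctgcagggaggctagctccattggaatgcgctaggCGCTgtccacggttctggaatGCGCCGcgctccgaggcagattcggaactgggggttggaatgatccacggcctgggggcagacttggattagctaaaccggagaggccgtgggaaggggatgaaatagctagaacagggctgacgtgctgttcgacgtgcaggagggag

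The footprints in the Mmp9 body and behind exon 1a were the widest of the locus in both libraries. In the Mmp9 body 28 bp were footprinted in both libraries, by a footprint of 28 bp in replicate 1 and 36 bp in replicate 2. Behind exon 1a 31 bp were shared, from footprints of 31 bp in replicate 1 and 34 bp in replicate 2. The median footprint width of the locus was 8.5 bp in replicate 1 and 9 bp in replicate 2. In the middle of the intron 23 bp in 2 separate stretches were shared, and behind exon 1b 10 bp in 2 stretches.

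The region behind exon 1b contains a match to the element of REST, the repressor of neuronal genes in other tissues, whose site in this intron is known as background from work on the KCC2 gene. The match has 2 mismatches in the 19 fixed letters of the consensus and lies on the minus strand at chr2:164968649-164968669. It is printed below 5' to 3' on that strand, with capitals where it has the letters of the consensus.
REST match: TcCAGaACCgtGGACAGCGCC
A footprint shared 6 bp with the match in replicate 1, and 2 footprints shared 15 and 2 bp with it in replicate 2. With up to 4 mismatches allowed, a match occurs in 0.498% of windows of 300 bp at the middle of 47768 regions shared between the shorter lists, and in 0.228% of 32851 RefSeq promoters of 300 bp. A match is a description of the letters and does not show that the factor was bound.

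The middle intron region holds 2 matches to the X-box of the RFX factors, which are known for genes of cilia and of neurons. The match at 164964703 to 164964712 has no mismatch and the match at 164964746 to 164964755 has 1. The exact match shared 5 bp with a footprint in replicate 1 and 8 bp in replicate 2, and all 10 bp of the other lay in a footprint in both libraries. This motif was added after the sequences had been seen. With up to 1 mismatch it is found in 4.87% of shared regions and 3.92% of promoters. The wide footprint in the Mmp9 body held matches to the site of CTCF, the insulator protein, with 1 mismatch, a form also chosen after the sequence was seen. Since 56.8% of shared regions hold such a match and 12.3% an exact one, which none of the 4 regions had, it says little about this footprint.

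The promoter windows of Slc12a5 in RefSeq's table for GRCm38.p6, shown up to the base before the annotated start, differ in the factor motifs they hold. The letters are the plus strand, and both starts are read because the annotated KCC2a and KCC2b exons begin there. In the exon 1a window, chr2:164960596-164960801, capitals mark footprints of replicate 2, since replicate 1 has none there. In the exon 1b window, chr2:164967738-164967982, capitals mark the E-box CACGTG of USF, a factor known to act at the KCC2b promoter.
exon 1a promoter: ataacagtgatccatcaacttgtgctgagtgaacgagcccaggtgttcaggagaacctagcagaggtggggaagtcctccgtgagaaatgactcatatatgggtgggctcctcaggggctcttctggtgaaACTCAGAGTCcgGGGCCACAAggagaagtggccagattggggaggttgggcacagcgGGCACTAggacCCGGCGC
exon 1b promoter: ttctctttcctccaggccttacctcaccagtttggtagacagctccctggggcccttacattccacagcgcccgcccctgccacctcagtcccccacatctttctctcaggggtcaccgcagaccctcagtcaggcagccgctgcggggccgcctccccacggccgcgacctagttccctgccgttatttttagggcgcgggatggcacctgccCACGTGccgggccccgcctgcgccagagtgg
The printed exon 1b window lay outside every listed region of both libraries. It held the E-box at 164967952 to 164967957, which no footprint overlapped in either library. CACGTG occurs in 7.15% of promoters and 6.93% of shared regions. It also held a match to the MEF2 site with 1 mismatch (2.29% of promoters) and a GC box, GGGCGG (35.7%). The whole exon 1a window of 300 bp held the AP-1 motif TGANTCA (7.81% of promoters) and a GC box. The region over exon 1b in replicate 2, but not the narrower one of replicate 1, contained the EGR motif CGCCCNCGC on the minus strand at 164968353 to 164968361, inside the 5' UTR. EGR4 is known as an activator of KCC2, and this motif occurs in 5.05% of shared regions. No footprint overlapped it. All of these motifs were searched on both strands.

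False discovery rates at Slc12a5 were far lower in replicate 2 than in replicate 1. The authors list the false discovery rate of the cut rate per base up to 0.05. In replicate 1 the lowest rate in the locus was 0.000771, in the Mmp9 body, and 37 bases were at 0.001 or below. In replicate 2 the lowest rate was 4.05e-21 and 2711 bases were at 0.001 or below. The 5 higher regions of Slc12a5 in replicate 1 had heights from 1.14 to 1.55. Of 7936 longer-list regions of replicate 1 in that range, 220 (2.77%) were absent from the shorter list, and these 5 were among them. The cause was not tested.

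**Figure D2:**
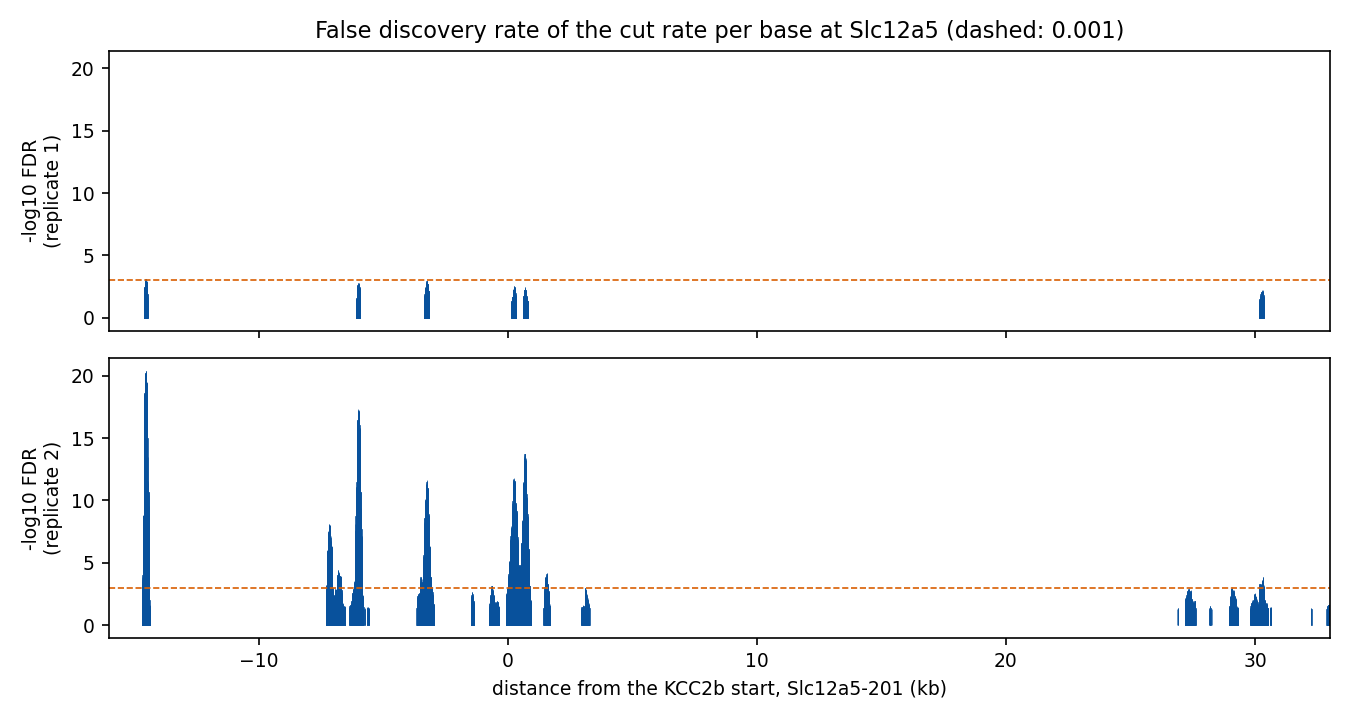
The authors' false discovery rate of the cut rate per base at Slc12a5, as -log10, against distance in kb from the exon 1b start, with 0.001 as a dashed line; only bases listed at 0.05 or below are drawn. In replicate 1 only the site in the Mmp9 body reaches the line (lowest rate 0.000771), while in replicate 2 it reaches 4.05e-21.

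Heights at Slc12a5 differed between the libraries in the same direction as heights in general. Over 79547 overlapping pairs of the longer lists the median of log2(replicate 2 / replicate 1) was 0.28, and the middle 80% lay between -0.23 and 0.76. The 6 pairs of Slc12a5 were at 0.89 in the Mmp9 body, 0.71 behind exon 1a, 0.25 in the middle of the intron, 0.39 over exon 1b, 0.60 behind exon 1b and -0.17 in the 3' UTR. The first of these was above the 80% range and the others lay within it. Greatest promoter heights had a median log2 ratio of 0.32 over all genes open in both libraries of the longer lists. The marker lists were at 0.14 for neurons, 0.11 for excitatory neurons, 0.099 for interneurons, 0.091 for the oligodendrocyte lineage and -0.02 for astrocytes. The 4 astrocyte markers ran from -0.47 to 0.50, and 2 were higher in replicate 2. Endothelial and mural markers were at -0.36 (2 genes) and choroid plexus at 0.73 (1 gene). Slc12a5 was at 0.53, which sets the region behind exon 1b in replicate 2 against the one over exon 1b in replicate 1. The part of cell makeup in the difference was not tested.

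The number of regions in the Slc12a5 locus, 58.93 kb with its flanks, also depended on the library. In the shorter lists it was 0 in replicate 1 and 10 in replicate 2. The median over 3326 coding loci within 20% of its length was 2 in replicate 1 and 3 in replicate 2, and 96.5% of those loci had fewer than 10 in replicate 2. In the longer lists Slc12a5 held 6 regions in replicate 1, more than 73.8% of these loci, and 20 in replicate 2, more than 98.9%. Regions of replicate 2 that replicate 1 lacks were mostly low: apart from the exon 1a region at 1.36, the 13 others in the longer list had heights from 0.421 to 0.830. Among these 13, the region from 164997793 to 164998120, with 0.530, lies inside a listed region that overlaps replicate 1. That wider region runs from 164997793 to 164998440 with 0.655, so the count of 20 holds this DNA in 2 entries. Some of the 13 lie in the neighbouring gene Ncoa5. The 2 retained-intron starts had no region in the shorter lists, and in the longer list only the second had any, 2 in replicate 2 with a greatest height of 0.563.

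Slc12a5 held 14 footprints in replicate 1 and 56 in replicate 2 (35 ± 29.7 on average, SD, n = 2). Loci of like length had a median of 10 in replicate 1 and 15 in replicate 2, and 63.9% and 98.5% of them held fewer than Slc12a5. Of its footprints 8 of 14 in replicate 1 overlapped one of replicate 2, and 9 of 56 in replicate 2 overlapped one of replicate 1. In replicate 1, 13 of the 14 lay in a region of the longer list.

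Slc12a2 was open in both libraries, and nearly all of its accessible DNA lay within 1000 bp of the single coding start. The main region lay upstream of the gene, from 57878101 to 57878340 on chromosome 18 with a height of 2.44 in replicate 1, and from 57878061 to 57878460 with 3.17 in replicate 2 (2.81 ± 0.520 on average, SD, n = 2). It ended 338 bp before the start in replicate 1 and 218 bp before it in replicate 2. Regions at or inside exon 1 were much lower. One at the start had 0.610 in replicate 1 and one from 57878781 to 57878980 had 0.983 in replicate 2, and these did not overlap in the shorter lists. One across the end of exon 1 had 0.616 in replicate 1 and 0.716 in replicate 2. The height of Slc12a2 was thus greatest before the start, whereas at exon 1b of Slc12a5 the regions of both libraries lay over and behind the starts.

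**Figure D3:**
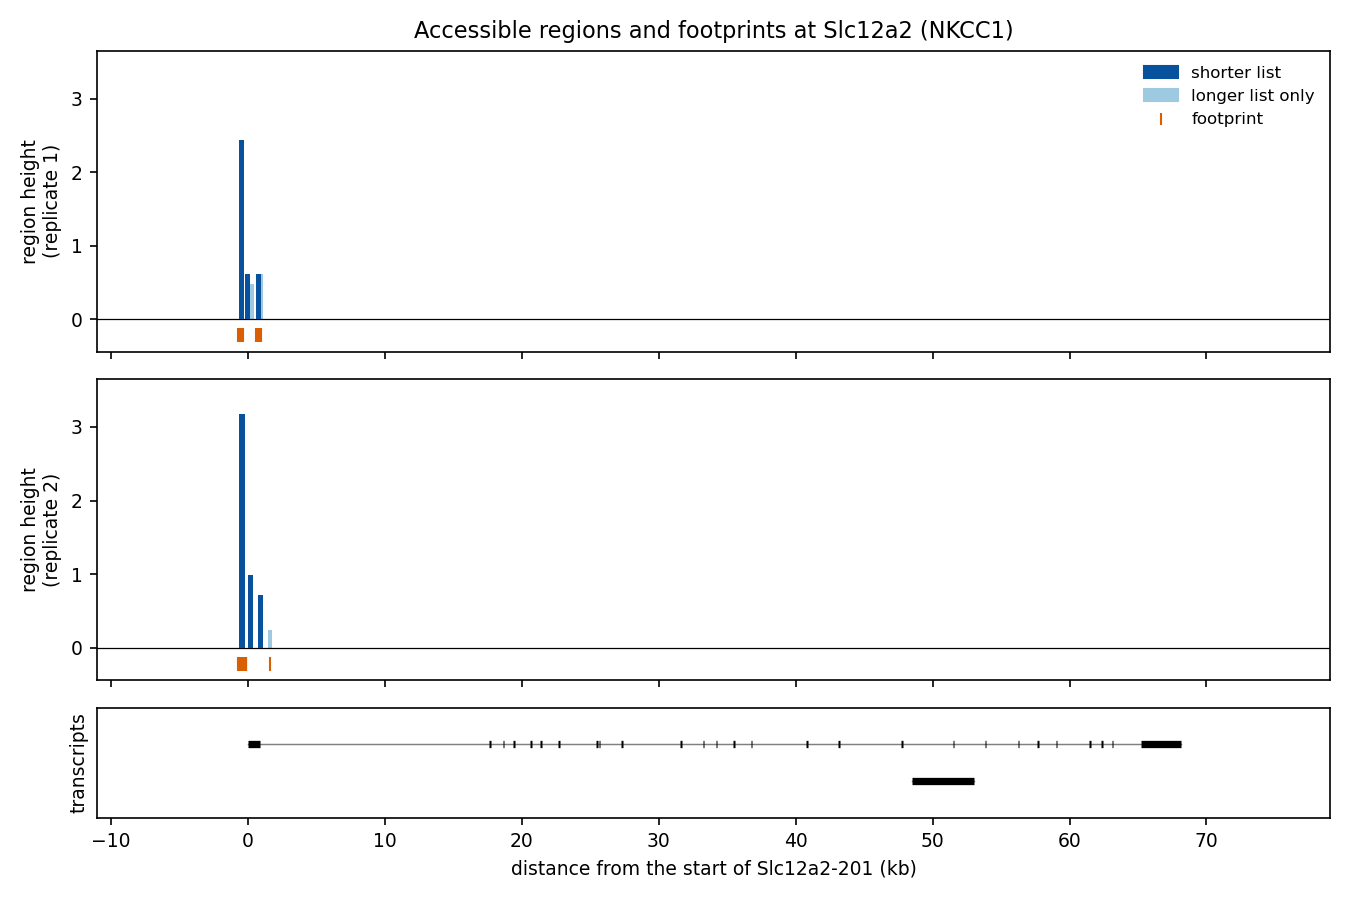
Regions and footprints over the Slc12a2 body and 10 kb on each side, by distance in kb from the start of Slc12a2-201, with the same marks as for Slc12a5. In both libraries the bars stand at the start, the highest at 2.44 in replicate 1 and 3.17 in replicate 2, and the 68.144 kb body is otherwise empty except for a region of 0.235 in the longer list of replicate 2.

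Beyond its start the Slc12a2 locus was bare. No distal region was listed in the shorter lists. The longer list added 1 region at the start in replicate 1, and in replicate 2 a single distal region with a height of 0.235, located 1603 bp behind the start. The locus held 3 regions in each library in the shorter lists, where 2000 coding loci of like length had a median of 3 in replicate 1 and 4 in replicate 2. The Slc12a2 locus held 13 footprints in replicate 1 and 16 in replicate 2 (14.5 ± 2.12 on average, SD, n = 2), against medians of 13 and 18. Of these, 3 of 13 in replicate 1 and 4 of 16 in replicate 2 overlapped one of the other library. The lowest false discovery rate was 1.29e-25 in replicate 1 and 5.27e-42 in replicate 2.

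The starts of the cotransporters differ in CpG content. Within 500 bp of the coding start of Slc12a2 there are 156 CpGs, more than at 99.9% of 58745 coding transcripts, whose median is 38. At Slc12a5 there are 56 at both coding starts of exon 1a, and 74 and 86 at the coding starts of exon 1b. The GC box GGGCGG, found in 32.5% of shared regions, occurred in the main upstream region of Slc12a2 in both libraries and in the regions at its start. An ETS motif, CCGGAAG (6.89% of shared regions), lay at 57878108 to 57878114, within the bounds of the upstream region in both libraries, and a footprint of replicate 1 shared 2 bp with it.

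Set among all open coding genes, the promoter of Slc12a5 was in the lower part of the range and that of Slc12a2 near the middle. In the longer lists, 24.3% of open genes in replicate 1 and 30.3% in replicate 2 had a lower greatest promoter height than Slc12a5. For Slc12a2 the shares were 51.0% and 53.6%, and in the shorter lists 46.7% and 50.4%. In the shorter list of replicate 2, 25.5% of open genes were lower than Slc12a5. Within each library Slc12a5 was below Slc12a2, with 1.20 against 2.44 in replicate 1 and 1.73 against 3.17 in replicate 2. No test was run on 2 libraries.

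**Figure D4:**
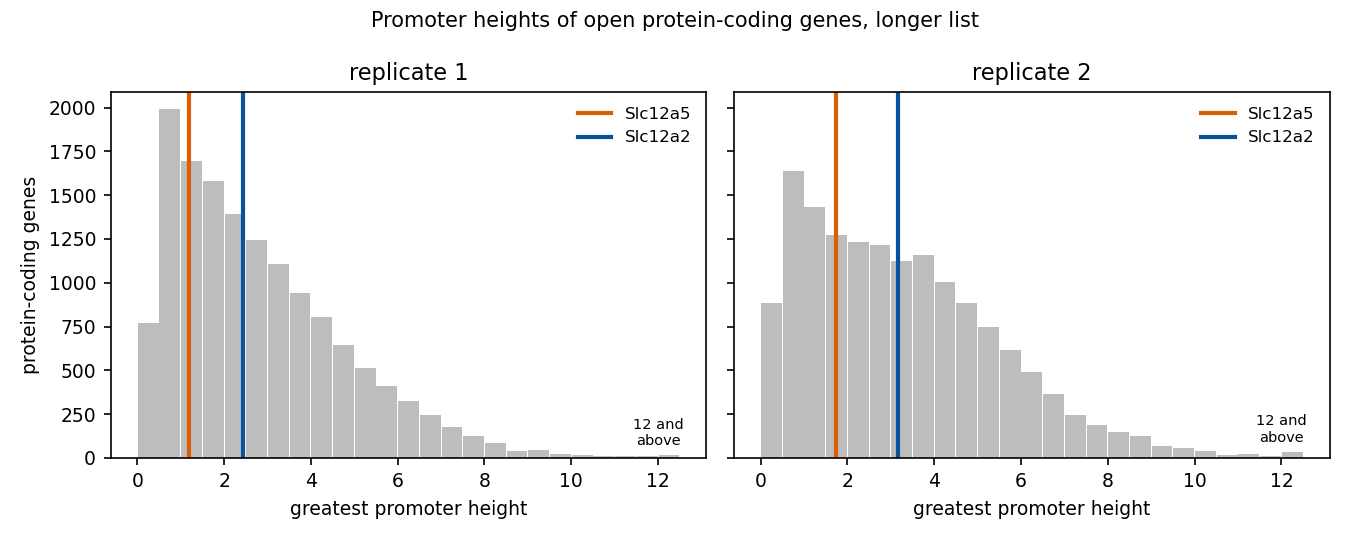
Number of protein-coding genes by greatest promoter height in the longer list of each replicate, in steps of 0.5 with the last bar for 12 and above; lines mark Slc12a5 and Slc12a2. Slc12a5 stands at 1.20 in replicate 1 and 1.73 in replicate 2, left of the medians of 2.39 and 2.93, and Slc12a2 at 2.44 and 3.17, close to them.

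The genes whose promoter heights and region counts in both libraries were most like those of Slc12a5 in the longer lists were Flii, Stum and Snph, by Euclidean distance over log2 heights and log2(count + 1). Flii had heights of 1.29 and 1.83 and 6 and 20 regions. For Slc12a2 in the shorter lists they were Metap2, Sumf1 and Fnta. Metap2 had heights of 2.43 and 3.15 and 3 regions in each library. The distance was taken over 14130 genes for Slc12a5 and 13007 for Slc12a2.

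Within the SLC12 family of 9 cation-coupled chloride cotransporter genes and their relatives, 6 were open in both libraries in the shorter lists, Slc12a5 in replicate 2 alone and 2 in neither. The background of 59.3% open in both applies here too, and the list is too short to read its share against it. The closed genes were Slc12a1 (NKCC2) and Slc12a3 (NCC), the transporters of the kidney tubule. Slc12a9 was the highest with 4.23 in replicate 1 and 6.25 in replicate 2, above Slc12a2 in both libraries. Slc12a4 (KCC1) had 1.12 and 1.50, close to the longer-list values of Slc12a5, and Slc12a7 (KCC4) 0.892 and 0.890. Slc12a8 was the lowest of the open members with 0.691 and 0.645.

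Of 8 genes of the WNK and SPAK kinase pathway, which phosphorylates both cotransporters and so raises NKCC1 and lowers KCC2 activity, 6 were open in both libraries, against 59.3% of all coding genes. Oxsr1 (OSR1) had 5.84 in replicate 1 and 6.84 in replicate 2, Wnk1 5.06 and 5.92, and Cab39l, an adaptor of these kinases, 3.34 and 3.41. Stk39, the SPAK gene, had 1.50 and 1.51. Wnk4 was open in replicate 2 alone, with 1.05, and Wnk3 in neither.

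**Figure D5:**
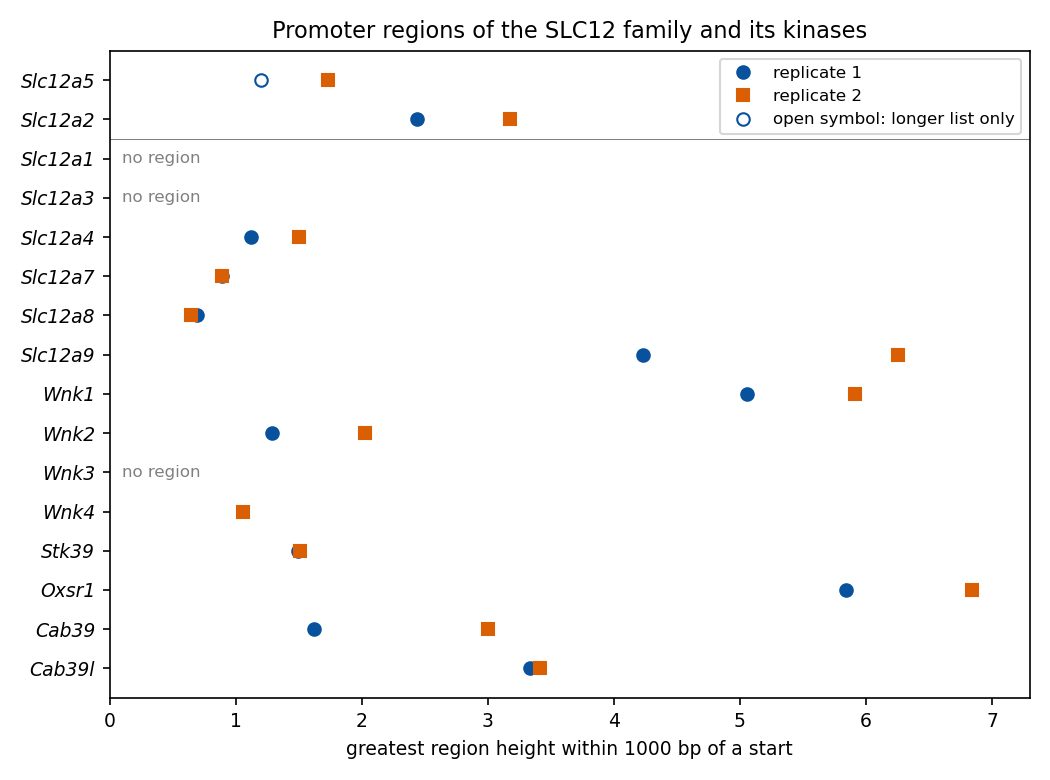
Greatest region height within 1000 bp of a start for Slc12a5 and Slc12a2, other SLC12 genes and the WNK and SPAK kinase genes, with circles for replicate 1 and squares for replicate 2; filled symbols are in the shorter list and the open circle in the longer list only. Slc12a5 is the only gene shown with an open symbol, at 1.20, and Slc12a1, Slc12a3 and Wnk3 have no region.

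All 13 genes of known KCC2 regulators and partners were open in both libraries, against 59.3% of all coding genes. Among the highest were Nlgn2, a synaptic adhesion protein of inhibitory synapses, with 4.88 in replicate 1 and 5.57 in replicate 2, and Usf1 with 3.56 and 4.72. Rest had 0.679 in replicate 1 and 1.40 in replicate 2. Egr4 had 1.58 and 1.95.

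Of 16 genes of other chloride and bicarbonate transport, 14 were open in both libraries (59.3% of all coding genes were), 1 in replicate 1 alone and 1, the chloride channel Ano1, in neither. The highest were Clcn6 with 9.46 and 9.37, and Lrrc8a, a subunit of the volume-regulated anion channel, with 7.45 and 9.19. Of 16 genes of GABA and glycine receptor channels, through which the chloride set by both cotransporters flows, 15 were open in both (against the same 59.3%) and Gabrd, a subunit of receptors outside the synapse, in replicate 2 alone with 0.798. Among their highest promoters, Gabra2 with 1.60 and 2.42 and Gabrb1 with 1.53 and 1.94 were above Slc12a5 in both libraries and below Slc12a2.

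The flanks of Slc12a5 reach 2 neighbouring genes. Ncoa5, a nuclear receptor coactivator gene that runs towards Slc12a5 on the minus strand, was open in both libraries with 5.71 in replicate 1 and 7.33 in replicate 2. Mmp9 was open in replicate 2 alone in the shorter lists, with 2.87, and in both in the longer lists. The height assigned to Mmp9 is that of the region in its body that also counts in the Slc12a5 locus, so the regions of this locus are not assigned to Slc12a5 alone.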

How the data were processed

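Hippocampal DNase-seq libraries (2 replicates of 1 group) were analysed from the deposited lists. Per the notes deposited with each sample, each list was made from the alignments of that library and a further, unnamed source, on mm10. The sources used here name no aligner, caller or threshold. The region height is a signal that the authors deposited per region, used to rank and describe regions. The deposited false discovery rates per base, a kind of adjusted p-value, reach 0.05. The deposited footprints carry the same p-value of 0.01 in every row.

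The shorter list was the main one. An overlap of 1 bp made regions shared. Promoters lay within 1000 bp of a start in GENCODE M21 and loci were gene bodies plus 10 kb. Counts of genes are by gene ID on chromosomes 1 to 19, X and Y. With 1 group there was no test, and values are given per library or as mean and SD.

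Named genes were the members, their neighbours, the whole SLC12 family, up to 3 genes with the highest mean promoter height in each other list, genes open in 1 library or neither, and for each member the 3 nearest genes. Some genes under this rule are not reported here. Stk39, Rest, Egr4 and single markers were named outside this rule, after their values were seen. Members and lists were chosen with earlier results of these data known.

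Motifs were searched in the 300 bp at the middle of each region. The interval and motif searches were tested on simulated data. Tools were Python 3.11.15, numpy 2.4.6, pysam 0.24.0, samtools 1.23.1 and matplotlib 3.10.9.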

Additional observations from a re-analysis of the deposited data

How the results depend on the processing

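The greatest promoter height of Slc12a5, 1.73 from replicate 2 in the shorter list, was 1.47 as the mean of both libraries in the longer list and 2.32 at a promoter distance of 2500 bp, which takes in the region behind exon 1a. No value could be had without replicate 2, since replicate 1 has no such region in the shorter list. The mean number of regions at Slc12a5, 5, became 13 in the longer list, 3 in the stronger 50% of regions and 11 with flanks of 50 kb, and ranged from 0 to 10 with either replicate left out. Its shared regions, 0, became 6 in the longer list and 5 with flanks of 50 kb. Its footprints, 35 on average, became 75.5 with flanks of 50 kb and 11.5 inside regions of the shorter list, and ranged from 14 to 56 with either replicate left out.

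For Slc12a2 the height of 2.81 was the same under each alternative that kept both libraries. Its 3 regions became 1 in the stronger 50% and 5.5 with flanks of 50 kb. Its 2 shared regions became 4 in the longer list, 1 in the stronger 50%, 1 without flanks and 4 with flanks of 50 kb. Its 14.5 footprints became 3.5 without flanks, as most lie before the start, and 28.5 with flanks of 50 kb. Of the GABA and glycine channel genes, 15 were open in both libraries and 7 in the stronger 50% of regions. The share of all coding genes under that cut is not given here, so the drop is not read as a result about these genes. No other list moved by more than 1.5 times. No result reversed.

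No paired analysis was possible because there is only 1 group. Depth is unknown, so a region absent from a list was not detected there and is not shown to be closed. The heights of the libraries are on scales of their own, and the sources used here do not give the normalisation behind them.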

Other observations

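Loci with no region in the shorter list of replicate 1 and at least 1 in replicate 2 were 789 of 21938 coding genes (3.6%). With at least 10 in replicate 2 there were 7 (0.0319%). The limit of 10 is the count of Slc12a5 itself, so its place among the 7 and their small share follow from that choice. Besides Slc12a5 the 7 included Gad2, which makes GABA, Myo3a, Pdzk1, Plpp2 and Foxa1. Gad2 held 0 regions in replicate 1 and 11 in replicate 2, and in the longer lists 1 and 16. Slc12a5 held 6 regions in the longer list of replicate 1, where these 5 genes held 0 to 3. These genes were named after their values were seen. The reverse pattern, no region in replicate 2 and at least 5 in replicate 1, was met by 3 genes, against 36 with no region in replicate 1 and at least 5 in replicate 2.

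Among the other chloride transport genes, the locus of Clcn2, a chloride channel, showed the same kind of difference from a higher start. It held 5 regions in replicate 1 and 19 in replicate 2 in the shorter lists, and 7 and 29 in the longer lists, whereas its promoter had similar heights of 4.74 and 5.38.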
